A study of Mus musculus with 8 samples.

Results

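The genes described here are the nuclear genes for subunits of the oxidative phosphorylation (OXPHOS) machinery, taken by symbol from RNA-seq tables of mouse skin stem cells. Members were the protein-coding genes of either table whose symbols began with Ndufa, Ndufb, Ndufc, Ndufs or Ndufv and a digit, were Sdha to Sdhd, or began with Uqcr, with Cox4 to Cox8, or with Atp5, without symbols marked as pseudogenes by -ps. This gave 78 members among 24755 genes of the 2 tables, with 35 in complex I, 4 in complex II, 8 in complex III, 14 in complex IV (Ndufa4 and Ndufa4l2 counted there) and 17 in complex V. All 78 were listed for hair follicle stem cells (HFSCs, sorted from dorsal skin as CD34+ CD49f+ Sca-1-), and 77 for epidermal stem cells (EpdSCs, sorted as CD34- CD49f+ Sca-1+), whose table had no row for Cox6b2. In each cell type, 2 libraries from telogen (resting-phase) skin of Msx2-KO mice, homozygous for an Msx2 allele disrupted by a pMC1-neo cassette placed upstream of exon 2, were compared with 2 libraries from hair cycle-matched WT C57BL/6J mice. The labels give an age of 2 months for WT HFSCs and of 6 months for the other 3 groups, so that genotype and age cannot be told apart in HFSCs. In both cell types the names of the libraries also fall into separate runs by genotype, and what the names stand for is not given. The labels do not say whether the 2 libraries of a group came from separate mice, so the p-values measure the spread between these libraries.

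The nuclear subunits join the few subunits encoded by mitochondrial DNA to build the respiratory chain of the inner mitochondrial membrane. Complex I (NADH dehydrogenase) and complex II (succinate dehydrogenase, which is also an enzyme of the tricarboxylic acid cycle) pass electrons to ubiquinone, complex III passes them on to cytochrome c, and complex IV (cytochrome c oxidase) to oxygen. Complexes I, III and IV pump protons, and complex V, the ATP synthase, uses the return flow of protons to make ATP. Resting HFSCs are known for a metabolism that leans on glycolysis.

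For Msx2 itself, the WT HFSC libraries held estimated counts of 53 and 7 and those labelled Msx2-KO held 40 and 18, and values of 58.5 and 85.4 against 150 and 22.2 in EpdSCs. Scaled, the HFSC values were 43.2 and 13.8 in WT against 26.6 and 23.3 in Msx2-KO. The groups overlapped in both cell types, with EpdSC Msx2-KO replicate 1 above and replicate 2 below both WT libraries, so Msx2 counts did not separate the labels. Whether the cassette alters reads counted over the whole gene was not tested. HFSC libraries held 4324511 and 3132974 estimated counts in WT against 11016659 and 6895606 in Msx2-KO. Genes with a rounded count above 0 numbered 22488 and 19667 in the WT HFSC libraries but 11414 and 14268 in the Msx2-KO libraries. Nuclear protein-coding genes took 76.4% and 47.8% of the WT HFSC totals and 33.6% and 26.8% of those of Msx2-KO. The EpdSC values, deposited as normalized signal, summed to 16478545 and 14681964 in WT and to 24694442 and 14216483 in Msx2-KO. The nuclear protein-coding shares lay further apart between the WT HFSC libraries than between those of Msx2-KO. Gene by gene, however, the 2 Msx2-KO libraries of a cell type stood further from each other than the 2 WT libraries did. Between them the median member differed 1.93-fold in HFSCs and 2.55-fold in EpdSCs, against 1.25-fold and 1.15-fold between the WT libraries. Members more than 4-fold apart numbered 18 of 76 between the Msx2-KO HFSC libraries and 28 of 77 between the Msx2-KO EpdSC libraries, and 0 between the WT libraries of either cell type. Over all genes tested the shares were 37.5% in Msx2-KO HFSCs, where that of the members was 23.7%, and 32.9% in Msx2-KO EpdSCs, where that of the members was 36.4%. The markers of the sorted cells were present. Krt15, a bulge keratin, was at 28679 and 27128 normalized counts in WT HFSCs. Krt14, a basal keratin, was at values of 71869 and 84155 in WT EpdSCs. Krt15 was also at 79951 and 96241 in WT EpdSCs, so it does not set the cell types apart. Krt10, a suprabasal keratin, was at 158740 and 107937 in the same WT EpdSC libraries. Cd34, the sort marker of HFSCs, had no row in the EpdSC table, and Ly6a, which encodes Sca-1, had none in the HFSC table.

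In HFSCs the OXPHOS genes as a group made up a larger part of the nuclear protein-coding counts in the Msx2-KO libraries. Summed, they took 0.249% and 0.209% of the WT libraries against 0.694% and 0.548% of those labelled Msx2-KO, which is 0.229% ± 0.0281 against 0.621% ± 0.103 (SD, n = 2), a 2.71-fold difference. Both Msx2-KO libraries lay above both WT libraries. With 2 libraries against 2, the smallest two-sided p of an exact permutation test is 0.333, so such a separation cannot reach 0.05 by itself. In these bulk libraries, a change in the number of cells of a type and a change in RNA per cell cannot be told apart.

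**Figure D1:**
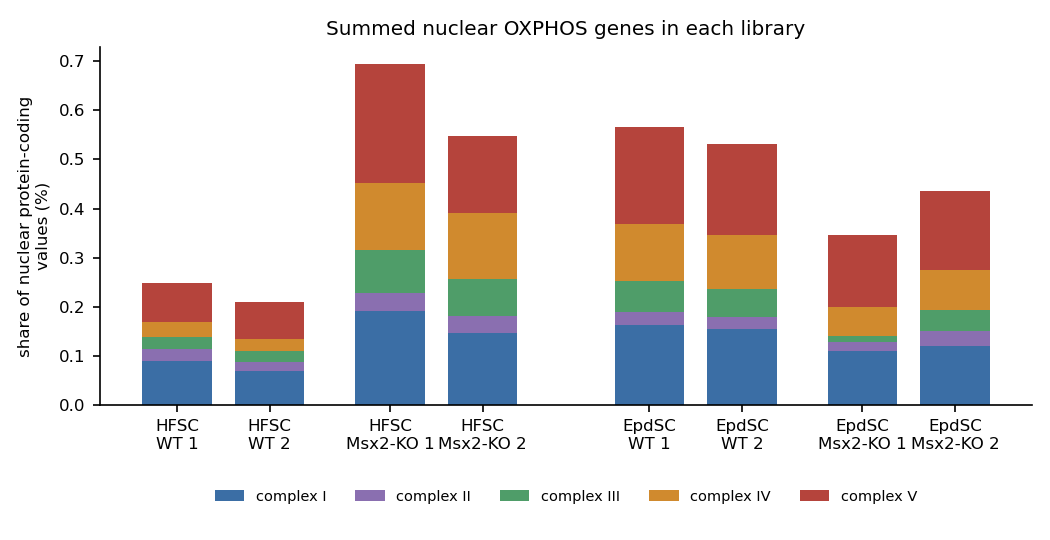
Summed share (%) of the nuclear OXPHOS genes in all nuclear protein-coding values of each library, with complexes I to V stacked. The shares were 0.249% and 0.209% in WT HFSCs, 0.694% and 0.548% in Msx2-KO HFSCs, 0.567% and 0.532% in WT EpdSCs and 0.346% and 0.435% in Msx2-KO EpdSCs.

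Of the 78 members, 76 passed edgeR's filter on low counts in HFSCs. Ndufa12, an accessory subunit of complex I, and Cox6b2, the testis form of a complex IV subunit, did not. By edgeR (quasi-likelihood F-test, p adjusted by Benjamini-Hochberg over all 14422 genes), 0 members were called higher and 0 lower in Msx2-KO HFSCs at an adjusted p under 0.05 and a fold change over 2, as were 0.0% of all genes in either direction. At an unadjusted p under 0.05, 21 members were higher, where 5.3% of all genes were, and 1 was lower, where 12.8% of all genes were. DESeq2 called 6 members higher (7.89%; 2.24% of all genes) and 0 lower (2.43% of all genes). Limma-trend called 3 higher (3.95%; 1.1% of all genes) and 1 lower (1.32%; 8.66% of all genes). In 48 of the 76 members (63.2%) both Msx2-KO libraries lay above both WT libraries, against 17.5% of all genes, and in 4 members (5.26%) both lay below, against 33.5% of all genes. The median log2 fold change of the members was 1.20, and that of all genes was -0.14. Without Msx2-KO replicate 1, 27 members were called higher and 3 lower, against 15.1% and 21.5% of all genes, and without replicate 2, 41 were called higher and 8 lower, against 17.3% and 41.8% of all genes. Calls thus became more frequent over the whole table in these fits, where the remaining Msx2-KO library is assumed to vary like the WT libraries. Leaving out WT replicate 1 or 2 gave 1 member called higher, against 0.607% or 0.585% of all genes. Scaling by library totals, in which mitochondrially encoded RNA takes a large part, lowered the members that lay above from 48 to 14, against 5.98% of all genes, and the median to 0.38 while that of all genes went to -1.0.

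**Figure D2:**
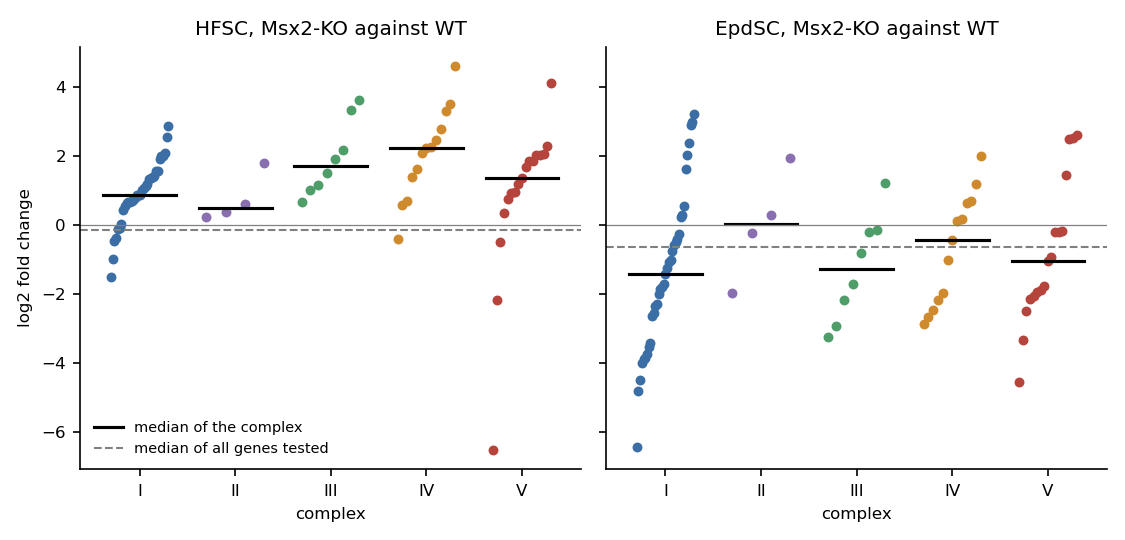
Log2 fold change (Msx2-KO against WT) of each nuclear OXPHOS gene tested, by complex, in HFSCs and in EpdSCs, with black bars at the median of each complex and a dashed line at the median of all genes tested. In HFSCs the complex medians run from 0.51 for complex II to 2.24 for complex IV, above the -0.14 of all genes, and in EpdSCs from -1.40 for complex I to 0.04 for complex II, around the -0.64 of all genes.

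Among complex I genes in HFSCs, 16 of 34 tested lay above both WT libraries (17.5% of all genes) and 2 lay below (33.5% of all genes), and their median log2 fold change was 0.88. Ndufs1, an iron-sulfur core subunit and the member of complex I with the highest mean over the 4 libraries, had 218.3 and 225 normalized counts in WT against 382 and 269 in Msx2-KO. The groups did not overlap, but the difference did not pass (log2 fold change 0.56, SE 0.33, adjusted p = 0.528). Ndufa7, an accessory subunit, gave the largest ratio in this complex among members with at least 100 normalized counts in a group, with 28.5 and 11.8 in WT against 173 and 67.3 in Msx2-KO (log2 fold change 2.55, SE 1.01). Ndufs3, a core subunit, had 58.6 and 57.2 in WT against 0 and 41.4 in Msx2-KO, so that its groups did not overlap while the Msx2-KO libraries were themselves far apart.

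The 4 succinate dehydrogenase genes of complex II differed least, with a median log2 fold change of 0.51 in HFSCs. Sdha, the flavoprotein subunit that oxidizes succinate, had 439 and 327 normalized counts in WT against 579 and 329 in Msx2-KO, and its groups overlapped. Its iron-sulfur partner Sdhb had 83.1 and 84.8 in WT against 64.5 and 155 in Msx2-KO, also overlapping. The membrane anchors Sdhc (83.9 and 106.5 against 183 and 110.1) and Sdhd (42.4 and 51.3 against 84.4 and 245) lay above WT in both Msx2-KO libraries, with adjusted p = 0.713 and 0.352 by edgeR.

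All 8 complex III genes lay above both WT libraries in both Msx2-KO HFSC libraries (17.5% of all genes), and 4 of them were higher at an unadjusted p under 0.05 (5.3% of all genes). Uqcrq, a small ubiquinone-binding subunit at chr11:53427922-53430831 (GRCm38, minus strand), had 38.3 and 27.6 normalized counts in WT against 396 and 421 in Msx2-KO. Its log2 fold change was 3.61 (SE 0.39, adjusted p = 0.143), and the 2 libraries of each group lay close together. Uqcrq was called higher by DESeq2 (adjusted p = 1.28e-05), by limma-trend (0.0327) and with the block in edgeR (0.00753), but not by edgeR with library totals (0.105), with at least 10 counts in every library (0.0827) or without WT replicate 1 (0.0605) or 2 (0.154). Uqcr10, another small subunit, had 10.6 and 17.7 in WT against 161 and 124 in Msx2-KO. Uqcrc1, a core protein and the most abundant of the complex, had 309 and 270.2 in WT against 746 and 426 in Msx2-KO, a smaller difference (log2 fold change 1.02, SE 0.37). Uqcrfs1, the Rieske iron-sulfur protein, was the lowest of the complex at 0.67 (SE 0.53), with 78.2 and 98.6 in WT against 122 and 159 in Msx2-KO.

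Complex IV had the largest difference, its summed share going from 0.0307% and 0.0242% in WT HFSCs to 0.137% and 0.135% in Msx2-KO, a 4.96-fold difference. In 11 of its 13 genes tested both Msx2-KO libraries lay above both WT libraries, as in 17.5% of all genes. Cox6c, a small membrane subunit of cytochrome c oxidase at chr15:35925886-35938246 (GRCm38, minus strand), had 91.2 and 88.8 normalized counts in WT against 954 and 1092 in Msx2-KO. Its log2 fold change of 3.50 (SE 0.25, unadjusted p = 0.000117, adjusted p = 0.143) stood on libraries that nearly matched within each group. Cox6c was called higher by DESeq2 (adjusted p = 2.79e-11), by limma-trend (0.0327), with the replicate number as a block in edgeR (0.00017), and whichever library was left out, but not by edgeR with library totals (0.0864), with at least 10 counts in every library (0.0575) or without a filter (0.212). Cox6c lies across from part of Vps13b on the other strand, and the sources used here do not say if counting was strand-specific. It is among 27 members that overlap another gene, as do Cox4i1, Atp5a1, Atp5j, Ndufs1, Ndufa3 and Ndufb11. Cox4i1, the subunit through which ATP acts on the enzyme, had 170.2 and 128 in WT against 514 and 414 in Msx2-KO (log2 fold change 1.63, SE 0.32). Cox7b (67.6 and 73.0 against 669 and 297) and Cox6a1 (17.1 and 31.6 against 97.7 and 172) also lay above in both libraries. Cox8a, a small membrane subunit, overlapped between groups with 74.9 and 94.7 in WT against 75.8 and 53.1 in Msx2-KO. Ndufa4, once assigned to complex I, had 9.77 and 11.8 in WT against 144 and 68.6 in Msx2-KO. Its hypoxia-induced paralogue Ndufa4l2 had 6.52 and 3.94 in WT against 0 and 267 in Msx2-KO, so 1 library made all of its log2 fold change of 4.60 (SE 2.93). Of the paralogues Cox7a2 (39.1 and 39.4 against 306 and 68.6) and Cox6b1 (46.4 and 21.7 against 59.1 and 51.8) both lay above, and Cox7a2l, which helps complexes III and IV to associate, was the lowest of the abundant ones at 0.58 (SE 0.42). Cox6b2 had 4.89 and 5.92 in WT against 0 and 19.4 in Msx2-KO. Cox4i2, Cox6a2, Cox7a1, Cox8b and the inhibitor gene Atp5if1 had no row under these symbols for either cell type.

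In complex V, 11 of 17 genes lay above both WT libraries in both Msx2-KO HFSC libraries (17.5% of all genes) and 2 lay below (33.5%). Atp5mpl, a small membrane subunit of the ATP synthase at chr12:111961375-111966977 (GRCm38, minus strand), had 13.8 and 13.8 normalized counts in WT against 254 and 231 in Msx2-KO. Its log2 fold change of 4.12 (SE 0.52, adjusted p = 0.143) was the largest of the complex, and all 4 values sat close to their group mean. Atp5mpl was called higher by DESeq2 (adjusted p = 0.000142) and limma-trend (0.0403), but not by edgeR with the block (0.0564) or without WT replicate 1 (0.569) or 2 (0.630). Atp5a1, the alpha subunit of the catalytic head and the member with the highest mean over the 4 HFSC libraries, had 704 and 722 in WT against 1045 and 774 in Msx2-KO, with the lowest log2 fold change of the abundant genes in this complex (0.35, SE 0.25). Atp5j, a stalk subunit, had 177 and 164 in WT against 1039 and 366 in Msx2-KO. The 3 genes for subunit c, which forms the proton-driven ring, lay on different sides. Atp5g3 had 57.8 and 74.9 in WT against 296 and 251 in Msx2-KO, while Atp5g1 had 23.6 and 29.6 against 11.3 and 0, and Atp5g2 had 10.6 and 11.8 against 0 and 0. For Atp5g2 both Msx2-KO libraries were below the floor of 3 counts per library, which puts the gene at least 3.81-fold lower. The coding sequences of the 3 genes are related, but the longest run that Atp5g1 and Atp5g2 share is 20 bases (attggctatgccaggaaccc, across an exon junction, at chr11:96073213-96073536 and chr15:102663123-102665067 on the minus strand, shown because reads confined to such a run cannot be told apart), and Atp5g3 shares at most 11 with either.

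**Figure D3:**
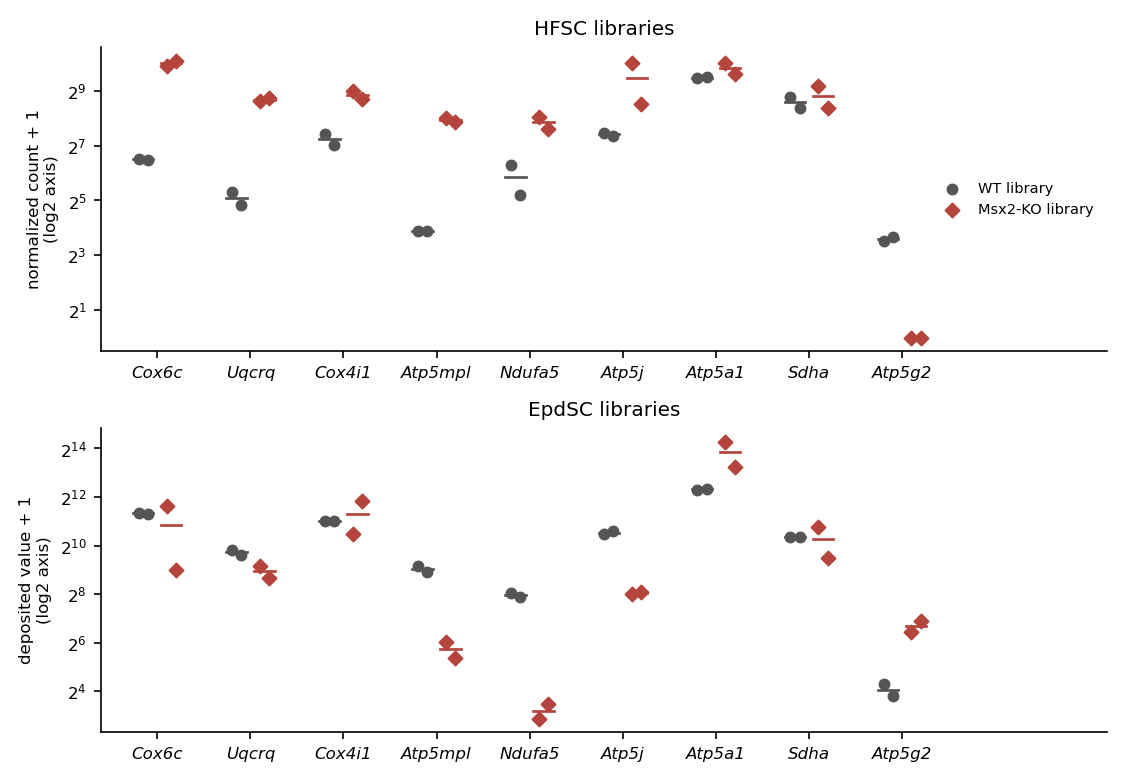
Values of 9 nuclear OXPHOS genes in every library on a log2 axis with 1 added, as normalized counts in HFSCs (top) and as deposited values in EpdSCs (bottom), with bars at the group means. In HFSCs, Cox6c goes from 91.2 and 88.8 in WT to 954 and 1092 in Msx2-KO, and in EpdSCs Ndufa5 goes from 266 and 232 to 6.37 and 10.1.

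Per kilobase of transcript, the order of the members changed with the label in HFSCs. In WT HFSCs the highest levels were those of Atp5a1 (288 normalized counts per kilobase), Atp5b (282), which encodes the catalytic beta subunit, Atp5j (229), Cox4i1 (198) and Uqcrc1 (175). In Msx2-KO HFSCs the first was Cox6c (1688), followed by Atp5j (947), Cox4i1 (615), Atp5k (506) and Atp5mpl (495), while Atp5a1 came at rank 12. In WT the libraries of the first pair, Atp5a1 and Atp5b, overlapped on this scale, and Ndufa6 came close behind Uqcrc1 at 174. In EpdSCs, whose per-kilobase values are on the authors' own scale, the highest in WT were Cox6c (4249), Cox4i1 (2764), Atp5b (2580), Atp5a1 (2060) and Atp5j (1989), and in Msx2-KO they were Atp5a1 (5959), Atp5g3 (5511), Ndufb11 (4873), Ndufa8 (4129) and Cox4i1 (3339). All these orders are of group means. In EpdSCs the Msx2-KO libraries gave different orders, with Atp5g3 first in replicate 1, Cox4i1 first in replicate 2 and Atp5a1 first in neither. In Msx2-KO HFSCs Cox6c was first in each library, but the order below it differed. The ranks were not tested.

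In EpdSCs the OXPHOS genes as a group took a smaller part of the nuclear protein-coding values in the Msx2-KO libraries. Their share was 0.567% and 0.532% in WT against 0.346% and 0.435% in Msx2-KO, or 0.549% ± 0.0244 against 0.390% ± 0.0632 (SD, n = 2), a 1.41-fold lower share, with both Msx2-KO libraries below both WT libraries. On the authors' scale the sum of the members did not show this, since it was 56847 and 53300 in WT against 76286 and 53212 in Msx2-KO, where Atp5a1 alone gave 19789 in Msx2-KO replicate 1. Of the 77 members, all of which were tested, limma called 0 higher and 2 lower among 16231 genes, of which 1.57% were called higher and 7.78% lower. At an unadjusted p under 0.05, 7 members were higher (12.2% of all genes) and 19 lower (23.1% of all genes). In 16 members (20.8%) both Msx2-KO libraries lay above both WT libraries, against 27.8% of all genes, and in 39 (50.6%) both lay below, against 44.5%. These shares are near those of all genes. The median log2 fold change of the members was -1.04, and that of all genes was -0.64. Without Msx2-KO replicate 1, 26 members were called lower (24.7% of all genes) and 9 higher (12.9%), and without replicate 2, 37 were called lower (40.9%) and 13 higher (23.1%). Without either WT library 0 genes of the whole table were called.

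The 2 called members were Ndufa5 and Atp5mpl. Ndufa5, an accessory subunit of the arm of complex I that reaches into the matrix (chr6:24518666-24528013, GRCm38, minus strand), had values of 266 and 232 in WT EpdSCs and 6.37 and 10.1 in Msx2-KO, and fell by 4.79 on the log2(value + 1) scale (SE 0.51, adjusted p = 0.0277 by limma). Atp5mpl had 569 and 477 in WT against 63.7 and 40.4 in Msx2-KO, and fell by 3.33 (SE 0.52, adjusted p = 0.0448). In both genes the Msx2-KO values were close together and far below WT. In HFSCs Ndufa5 lay on the other side, with 78.2 and 35.5 normalized counts in WT against 264 and 194 in Msx2-KO (log2 fold change 2.00, SE 0.61, adjusted p = 0.195 by edgeR). Both calls were lost when either WT library was left out (adjusted p from 0.285 to 0.371) and with edgeR on counts recovered from the values (0.0677 for Ndufa5 and 0.0659 for Atp5mpl). The call of Atp5mpl was also lost with a pseudocount of 0.1 (adjusted p = 0.062 by limma) and with the replicate number as a block (0.0706).

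Complex I held both the lowest and the highest differences in EpdSCs, with 21 of 35 genes below (44.5% of all genes) and 7 above (27.8%). Ndufa3, an accessory subunit of the membrane arm, had 273 and 221.9 in WT and was listed at 0 and 7.41 in Msx2-KO (log2 fold change -6.41, SE 1.21, adjusted p = 0.0589). It was called lower with a pseudocount of 10 (adjusted p = 0.0352 by limma) and with the block (0.0403), and its log2 fold change went to -8.15 with a pseudocount of 0.1 and to -4.28 with one of 10. Ndufa8, an accessory subunit facing the intermembrane space, had 311 and 272 in WT against 5872 and 1239 in Msx2-KO (3.21, SE 0.94, adjusted p = 0.108). Ndufb11, an X-linked accessory subunit with the highest mean of complex I over the 4 libraries, had 900.1 and 767 against 5487 and 3362 (2.37, SE 0.53, adjusted p = 0.0751). Neither gene of this pair passed here, though Ndufb11 did with a pseudocount of 10 (adjusted p = 0.0489 by limma) and with a mean-variance trend in limma (0.0404), and for Ndufa8 the 2 Msx2-KO libraries were themselves far apart. Ndufa12, which was under the filter in HFSCs with 17.1 and 7.89 normalized counts in WT against 0.665 and 0 in Msx2-KO, had 132 and 94.3 in WT EpdSCs and 1388 and 509 in Msx2-KO.

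In complex II, Sdhc had the highest log2 fold change in EpdSCs, with 605 and 622 in WT against 2400.3 and 2333 in Msx2-KO (1.95, SE 0.46, adjusted p = 0.0808, and 0.0386 with a mean-variance trend in limma). Sdha (1318 and 1292 against 1764 and 717), Sdhb (355 and 317 against 19.1 and 369) and Sdhd (248 and 224 against 180 and 460) overlapped between groups. Of the 8 complex III genes 5 lay below (44.5% of all genes) and 1 above (27.8%). Uqcrc1 had 2188 and 2068 in WT against 79.0 and 982 in Msx2-KO, and Uqcr10 had 278 and 305 against 6.37 and 132, so that replicate 1 was the lower library in each. Uqcrfs1 (766 and 705 against 108 and 470) was likewise lowest in replicate 1. The other core protein gene, Uqcrc2, lay above with 581 and 468 in WT against 969 and 1534 in Msx2-KO.

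Of the 13 complex IV genes in EpdSCs, 5 lay below and 3 above, near the 44.5% and 27.8% of all genes. Cox4i1, the most abundant by its mean, overlapped at 2085 and 2089 in WT against 1426 and 3616 in Msx2-KO. Cox6c also overlapped, at 2626 and 2523 against 3152 and 514. Cox8a (456 and 439 against 29.3 and 123), Cox6a1 (691 and 426 against 52.2 and 137) and Cox6b1 (524 and 268 against 50.9 and 178) lay below in both libraries, the first with the lowest log2 fold change of the complex (-2.87, SE 0.87, adjusted p = 0.114). Cox5a, a matrix-facing subunit, had the highest (2.01, SE 0.77), with 200.4 and 113 in WT against 1026 and 359 in Msx2-KO. Ndufa4l2 was abundant in all 4 EpdSC libraries, with 1228 and 1655 in WT against 2548 and 1970.1 in Msx2-KO, while Ndufa4 overlapped (336 and 250.4 against 1345 and 330) and so did Cox7a2 (367 and 230.5 against 256 and 182).

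In complex V, 8 of 17 genes lay below and 4 above in EpdSCs, near the 44.5% and 27.8% of all genes. The 4 above were Atp5a1 (4989 and 5189 in WT against 19789 and 9659 in Msx2-KO) and the 3 subunit c genes. Atp5g2 had 18.9 and 12.9 in WT against 86.4 and 119 in Msx2-KO (log2 fold change 2.62, SE 0.52, adjusted p = 0.0634), Atp5g1 had 152 and 123 against 1721 and 352, and Atp5g3 had 545 and 485 against 6604 and 1316. For the latter pair the Msx2-KO libraries were several-fold apart, with replicate 1 the higher. Atp5e, a subunit of the central stalk, was listed at 0 in Msx2-KO replicate 1 and had 261 in replicate 2, against 407 and 348 in WT, so that its log2 fold change of -4.54 (SE 2.95) rests on 1 library and went to -6.20 with a pseudocount of 0.1 and to -2.89 with one of 10. Atp5j had 1417 and 1536 in WT against 256 and 272 in Msx2-KO (log2 fold change -2.48, SE 0.46, adjusted p = 0.0578), with close libraries in each group.

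Set side by side, 24 of the 76 members tested in both cell types (31.6%) lay above both WT libraries in HFSCs and below both in EpdSCs, where 7.97% of the 13151 genes tested in both did. The 24 are 24 of the 48 members above in HFSCs and of the 39 below in EpdSCs. Taken singly, 63.2% of members lay above in HFSCs (17.5% of all genes), and 50.6% lay below in EpdSCs, near the 44.5% of all genes. If unrelated to each other, these shares would give about the same joint count, so the excess repeats that in HFSCs. The opposite pattern, below in HFSCs and above in EpdSCs, was found in 4 members (5.26%; 8.58% of all genes), which were Atp5g1, Atp5g2, Ndufb5 and Ndufs3. In 8 members (10.5%; 5.68% of all genes) the Msx2-KO libraries lay above in both cell types, among them Atp5a1, Atp5g3, Sdhc, Uqcrc2 and Ndufa8, and in 0 members (0.0%; 15.3% of all genes) they lay below in both. The WT and Msx2-KO libraries of the 2 cell types are separate samples. In the labels, the names of the Msx2-KO HFSC libraries run on from those of the WT EpdSC libraries. The WT HFSC and the Msx2-KO EpdSC libraries have names apart from these. In each cell type the names thus split with the genotype label. What the names stand for is not given. Its part in this pattern was not tested, and in this design it cannot be told apart from genotype in either cell type. The difference between the cell types was not tested, since the tables were scaled apart and in different units. By share of nuclear protein-coding values, a level set across the 2 tables, the WT EpdSC libraries (0.567% and 0.532%) stood above the WT HFSC libraries (0.249% and 0.209%), whereas the Msx2-KO EpdSC libraries (0.346% and 0.435%) stood below the Msx2-KO HFSC libraries (0.694% and 0.548%).

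**Figure D4:**
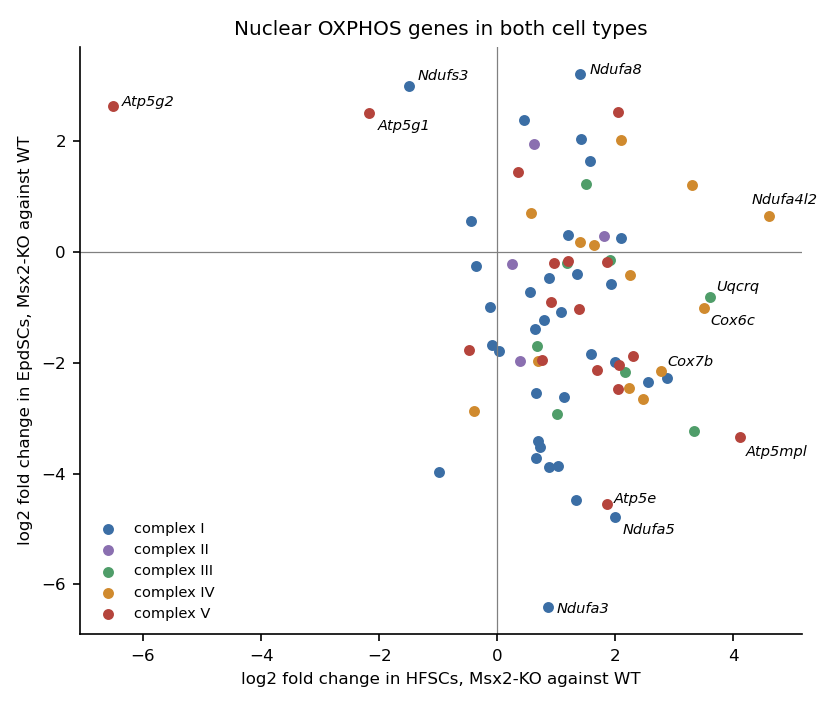
Log2 fold change (Msx2-KO against WT) of the 76 nuclear OXPHOS genes tested in both cell types, HFSCs on the horizontal axis and EpdSCs on the vertical axis, with points coloured by complex. Atp5mpl sits at 4.12 and -3.33, and Ndufa5 at 2.00 and -4.79. Atp5g2, at the far left, has 0 counts in both Msx2-KO HFSC libraries, and its horizontal position depends on the prior count of the fit.

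The promoters are shown because members that lay on the same side can be looked at for shared sequence. RefSeq start sites (GRCm38.p6) were matched for 65 of the 78 members, and the windows ran from 250 bases before to 50 bases after each start. The letters CGCATGCG, the palindromic core bound by NRF1, were found on either strand in 9 members (13.8%) and in 2.77% of protein-coding genes. The letters CCGGAAG, a core of the ETS family to which GABP belongs, were found in 17 (26.2%) and in 12.9%. The letters AAGATGGC, bound by YY1, were found in 10 (15.4%) and in 3.57%. Any of these was found in 30 members (46.2%) and in 17.8% of protein-coding genes, and the 3 do not overlap in the windows printed here. Of the 5 members that hold at least 2 of these, Atp5j, Atp5k, Atp5l, Cox6a1 and Uqcr11, the 250 bases before the start are shown for the 3 in which 2 or more different matches lie wholly before it. They are printed 5′ to 3′ with the matches on either strand in capitals, for Atp5j at chr16:84834977-84835226, Cox6a1 at chr5:115348959-115349208 and Atp5l at chr9:44920743-44920992, all on the minus strand.
Atp5j: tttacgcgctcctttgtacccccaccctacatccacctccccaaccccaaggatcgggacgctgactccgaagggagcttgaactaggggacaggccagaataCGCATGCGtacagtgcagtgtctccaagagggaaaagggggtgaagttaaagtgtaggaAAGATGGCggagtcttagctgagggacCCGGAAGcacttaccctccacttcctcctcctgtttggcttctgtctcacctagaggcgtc
Cox6a1: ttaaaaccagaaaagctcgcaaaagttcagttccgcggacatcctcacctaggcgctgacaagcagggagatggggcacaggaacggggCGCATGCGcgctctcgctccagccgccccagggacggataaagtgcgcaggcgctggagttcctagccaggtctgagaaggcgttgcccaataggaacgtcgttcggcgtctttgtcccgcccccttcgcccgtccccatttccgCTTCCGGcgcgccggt
Atp5l: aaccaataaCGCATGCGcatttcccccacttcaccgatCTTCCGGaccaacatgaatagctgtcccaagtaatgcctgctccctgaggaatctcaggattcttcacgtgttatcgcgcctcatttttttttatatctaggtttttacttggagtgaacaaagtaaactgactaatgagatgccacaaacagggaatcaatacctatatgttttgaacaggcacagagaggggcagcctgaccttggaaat
Atp5j holds all 3 before 1 of its 2 RefSeq starts, the NRF1 match beginning 147 bases before the start, then YY1 at 88 and ETS at 61. In Cox6a1 the NRF1 match begins 161 bases before the start and the ETS match 16. In Atp5l they begin at 241 and 212, and a further ETS match lies after the start. Atp5j and Cox6a1 lay above WT in HFSCs and below in EpdSCs. Atp5l lay above in HFSCs (53.8 and 69.03 against 247 and 198 normalized counts) and overlapped in EpdSCs (619 and 611 against 793 and 365). Other holders of these letters lay elsewhere. Atp5g2 (NRF1) and Ndufs3 (ETS) lay below in HFSCs and above in EpdSCs, and Ndufa8 (NRF1) lay above in both. Ndufa11 (NRF1), Cox8a, Ndufb6 and Sdhb (all ETS) were among those that overlapped in HFSCs. Whether the letters go with a side was not tested. Atp5mpl, Cox4i1, Cox6c, Ndufb9, Ndufs1, Ndufa2, Ndufa4l2, Atp5a1, Sdhc, Uqcrb, Uqcrc2 and Uqcrq were not matched.

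Other genes of mitochondrial energy metabolism were taken as lists. In HFSCs 0 genes of any of the 8 lists were called by edgeR in either direction, and the counts of genes above and below are to be set against the 17.5% and 33.5% of all genes. The 13 mitochondrially encoded subunits had a median log2 fold change of 1.71, with 9 of 13 above, and mt-Co1, the catalytic core of complex IV, had 14006 and 59336 normalized counts in WT against 171359 and 232375 in Msx2-KO. Here the 2 WT libraries differed several-fold. The 16 glycolysis genes had a median of 0.90 with 9 above and 4 below (Pkm, pyruvate kinase, 775 and 613 against 835 and 1046), and the 9 ATP and metabolite carriers a median of 1.17 with 5 above and 0 below (Ucp2, an uncoupling protein of the inner membrane, 168 and 420.1 against 1293 and 1221). The 17 genes of the tricarboxylic acid cycle and pyruvate dehydrogenase had a median of 0.64, with 6 above and 5 below (Cs, citrate synthase, 171 and 164 against 602 and 496). The 42 assembly factors (median 0.44, 10 above, 13 below; Acad9, 163 and 178 against 587 and 600) and the 76 mitochondrial ribosome genes (0.65, 25 above, 17 below; Mrps35, 73.3 and 73.0 against 552 and 188) were mixed. The 16 electron carrier genes (median 0.01; Coq8a, 310 and 166 against 359 and 51.8) and the 15 regulators of mitochondrial biogenesis (median -0.06; Yy1, 324 and 511 against 471 and 329) centred near 0.

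In EpdSCs the same lists gave 4 genes called higher and 3 called lower by limma, where 1.57% and 7.78% of all genes were called. With edgeR on recovered counts, or without either WT library, 0 genes of the table were called, so none of these calls held there. Among 78 mitochondrial ribosome genes (median -0.89), Mrps23 (211 and 145 against 8184 and 5068), Mrpl3 (333 and 328 against 5283 and 4022) and Mrpl44 (235 and 239 against 2001 and 1527) rose, and Mrpl18 (421 and 387 against 57.3 and 37.7) fell. Of the 46 assembly factors (median -0.54), Sdhaf4, which helps to assemble succinate dehydrogenase, rose (42.2 and 46.5 against 651 and 491) and Cox17, the copper chaperone of complex IV, fell (337 and 326 against 6.37 and 14.2). Among 10 carriers (median 2.24), Ucp2 had 4572 and 3801 against 288 and 502 and fell by 3.45 on the log2 scale (SE 0.55, adjusted p = 0.0458 by limma). No gene was called among the mitochondrially encoded subunits (median -0.37; mt-Co1, 151701 and 96799 against 224246 and 146198), electron carriers (-0.02; Coq10a, 78.0 and 92.0 against 9017 and 767), tricarboxylic acid cycle (0.10; Cs, 2519 and 2191 against 31941 and 11575), biogenesis regulators (0.40; Yy1, 1528 and 1516 against 4425 and 3065) or glycolysis genes (-0.95; Ldha, 2090.5 and 2277 against 4093 and 5673).

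Several other measures differed along with the members, and their part in these results was not tested. The OXPHOS transcripts are short, with a median length of 772.5 bases and 50 of 78 at most 1000 bases. Among all nuclear protein-coding genes tested in HFSCs, the median log2 fold change was 1.06 for transcripts of at most 600 bases and 0.78 for those over 600 to 1000. It was 0.09 for those over 1000 to 2000, -0.11 for those over 2000 to 4000, and -0.27 for those over 4000 bases. In EpdSCs the same medians were -1.69, -0.35, -0.16, -0.16 and -0.52. The shortest transcripts thus stood on the same side as the members in each cell type, but in EpdSCs all the other length groups did too. The cytosolic ribosomal protein genes, which also have short and abundant transcripts, had a median of 1.51 over 77 genes in HFSCs, more than the 1.20 of the members, and of -0.92 over 79 genes in EpdSCs. Mitochondrially encoded RNA took 10.5% and 40.9% of all values in WT HFSCs and 56.6% and 62.1% in Msx2-KO. In EpdSCs it took 25.7% and 18.3% in WT against 5.13% and 8.22% in Msx2-KO. The 13 mitochondrially encoded subunits had a median log2 fold change of -0.37 in EpdSCs, with 5 below (44.5% of all genes) and 3 above (27.8%). On the authors' scale they summed to 370733 and 284570 in WT EpdSCs against 1249840 and 289364 in Msx2-KO. The sum of Msx2-KO replicate 1 thus stood above both WT libraries, and that of replicate 2 lay between them.

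**Figure D5:**
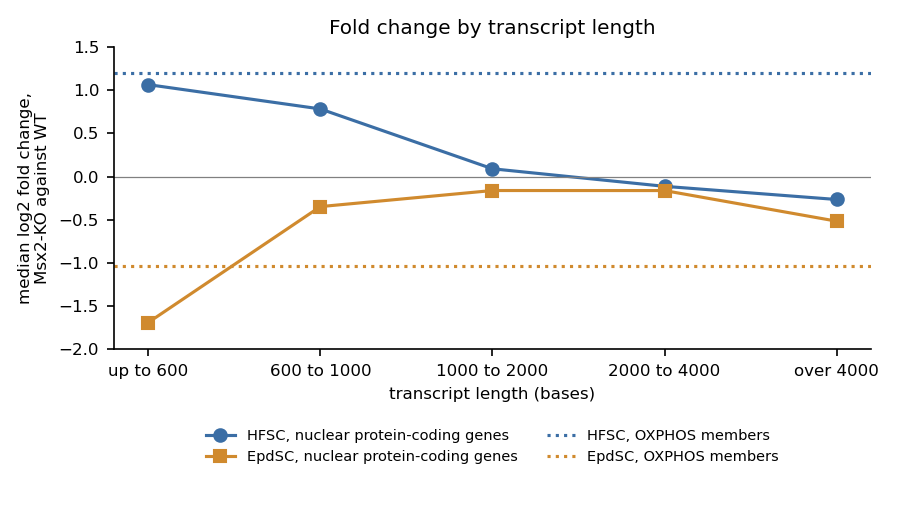
Median log2 fold change (Msx2-KO against WT) of all nuclear protein-coding genes tested, by transcript length in bases, with dotted lines at the median of the OXPHOS members (1.20 in HFSCs and -1.04 in EpdSCs). The shortest bin sits at 1.06 in HFSCs and -1.69 in EpdSCs.

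Markers of other cell types differed in HFSCs too, and their part in the results on OXPHOS genes was not tested. All 8 sebaceous gland markers tested lay above in Msx2-KO (17.5% of all genes lay above and 33.5% below), and the list summed to 453 and 584 normalized counts in WT against 8955 and 6751 in Msx2-KO, led by Scd1 (108 and 120.3 against 5955 and 4636). Of 8 suprabasal markers tested, 6 lay above, with sums of 2667 and 2603 against 5776 and 20171, led by Krt10, and of 5 cycling markers 4 lay above, with sums of 258 and 310 against 3161 and 2266, led by Mki67. The 10 HFSC markers summed to 58453 and 55446 in WT against 28393 and 30692 in Msx2-KO, with 8 below and 1 above. Of 5 muscle markers in the table, only Acta1 was above 0 in the Msx2-KO libraries, at 197 and 42.7 against 0 and 1.97 in WT. Adipocyte markers summed to 47.2 and 1.97 in WT against 0 and 7.77 in Msx2-KO, fibroblast markers to 310 and 396 against 172 and 86.8, endothelial markers to 129 and 35.5 against 37.2 and 24.6, and erythrocyte markers to 21.2 and 9.86 against 0 and 0. Immune markers summed to 53.8 and 29.6 against 123 and 63.5, all of it Cd74 in Msx2-KO, and melanocyte markers to 92.0 and 191 against 298 and 109. The basal epidermal list summed to 47321 and 47707 against 30318 and 29352. In EpdSCs the suprabasal list went the other way, with 6 of 9 below (44.5% of all genes) and sums of 300008 and 216714 in WT against 107436 and 82104 in Msx2-KO. The sebaceous list summed to 6611 and 7170 against 25390 and 10969, of which Scd1 gave 3585 and 4465 against 23465 and 9990, and Pparg, Elovl3, Awat1, Cidea and Scd3 had no row there. The basal list summed to 242958 and 287705 against 1016970 and 560616, the HFSC list to 90135 and 108740 against 311700 and 221230, the cycling list to 3459 and 2797 against 4740 and 2168 (with Mki67, its top gene, at 2517 and 2055 against 7.64 and 294), the immune list to 673 and 56.0 against 2.55 and 3.37, the endothelial list to 61.7 and 49.3 against 152 and 37.1, and the muscle list, with Mylpf alone in the table, to 9.75 and 15.2 against 15.3 and 8.76. Adipocyte, fibroblast, melanocyte and erythrocyte markers had no row in the EpdSC table. Among these markers limma called Postn and Cdk1 higher (1.57% of all genes) and Sbsn and Ivl lower (7.78%), calls not made by edgeR on recovered counts or without either WT library.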

How the data were processed

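RNA of sorted cells was made into libraries with the SMARTer Stranded Total RNA-Seq v3 kit. Per the labels and the methods of the study, the authors aligned reads to GRCm38 with STAR 2.7.3a in Partek Flow (version from the submitters' processing notes) and counted over GENCODE M25. Whether counting used strand is not given in the sources used here. The authors deposited estimated counts for HFSCs and, for EpdSCs, normalized signal values (estimated counts divided by 1 factor per library). The authors' fold changes and p-values were not used.

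HFSC estimated counts were rounded and tested with edgeR 4.0.16 (quasi-likelihood, TMM, filterByExpr, 14422 genes). Normalized counts are scaled to 6101083 per library. For EpdSCs, limma 3.58.1 was run on log2(value + 1) of all 16231 genes. A call needs a Benjamini-Hochberg adjusted p under 0.05 and a fold over 2. A gene lies above or below where both Msx2-KO libraries are above or below both WT libraries. Depth was 3132974 to 11016659 counts per HFSC library. Transcript lengths came from GENCODE M21. Named were called members, the member with the highest mean and those with the highest and lowest log2 fold change in each complex among those with a mean of at least 100, paralogue sets, the Sdh genes, Msx2 and, from other lists, called genes or the most abundant gene. Other named members were chosen after their values were seen. The values of 1 member that the rule names are not reported here. The members and lists were chosen with earlier results of these data known. Alternatives were DESeq2 1.42.0, limma-trend, other scalings, filters and pseudocounts, a replicate block, and each library left out. Scripts were tested on simulated data.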

Additional observations from a re-analysis of the deposited data

Results flagged for a closer look

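Both Msx2-KO libraries lay above both WT libraries in HFSCs and below both in EpdSCs for 24 members, where 7.97% of all genes did. The reverse held for 4 members, where 8.58% of all genes did. With 63.2% of members above in HFSCs and 50.6% below in EpdSCs, about 24 would lie so if the cell types were unrelated. Values are given for the 12 of these 24 and 4 members that the rule for named members picks in either cell type. They are also given for the summed share, which lay on opposite sides too. The difference between the cell types was not tested, and the tables were scaled separately. As the log2 fold change in HFSCs minus that in EpdSCs, it was 7.45 for Atp5mpl, 7.28 for Ndufa3, 6.79 for Ndufa5, 6.57 for Uqcr10, 6.41 for Atp5e, 5.14 for Cox6a1, 4.90 for Ndufa7, 4.43 for Uqcrq, 3.94 for Uqcrc1, 2.66 for Cox6b1 and 2.37 for Uqcrfs1. The values of Ndufa3 and Atp5e depend on the pseudocount, since 1 Msx2-KO EpdSC library of each was listed at 0. For Atp5g2 it was -9.13, a value that depends on the prior count because both Msx2-KO HFSC libraries had 0 counts. For the summed share of nuclear protein-coding values, the log2 ratio differed by 1.93. Groups of 2 libraries allow no check for a library far from the others.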

How the results depend on the processing

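In HFSCs the count of genes called, 0 with edgeR, was 674 with DESeq2, 51 with library totals, 2 with at least 10 counts in every library, 1407 with limma-trend and 132 to 9272 with 1 library left out. Members called higher numbered 6 with DESeq2 (2.24% of all genes), 3 with limma-trend (1.1%) and 1 to 41 with 1 library left out (0.585% to 17.3%), and members called lower 1 with limma-trend (8.66%) and 0 to 8 (0.211% to 41.8%). The member median of 1.20 became 0.38 with library totals, where the median of all genes shifted to -1.0, 0.99 with limma-trend (all genes -0.46) and 0.84 to 1.35 with 1 library left out. With library totals 14 members lay above (5.98% of all genes) and 9 below (49.8%), and with 1 library left out 50 to 59 lay above (21.0% to 39.2% of all genes) and 5 to 14 below (38.1% to 57.0%). Library totals turned Ndufs1 (-0.27), Sdha (-0.63), Uqcrfs1 (-0.16), Cox7a2l (-0.31), Atp5a1 (-0.47), Cox6b1 (-0.28), Sdhb (-0.52) and Sdhc (-0.14). With 1 library left out, Sdha ranged from -0.25 to 0.59 and Sdhb from -0.38 to 0.86. In EpdSCs the 1518 genes called became 0 with edgeR on recovered counts and 0 to 10376 with 1 library left out. Members called higher numbered 1 with a pseudocount of 10 (3.81% of all genes), 3 with a mean-variance trend (4.21%) and 0 to 13 with 1 library left out (0.0% to 23.1%), and members called lower 1 with a pseudocount of 0.1 (5.85%), 5 with one of 10 (8.34%), 0 with edgeR (0.0%) and 0 to 37 (0.0% to 40.9%). EpdSC Cox4i1 was -0.15 with library totals, and with 1 library left out Cox4i1 ranged from -0.55 to 0.79, Sdhb from -4.07 to 0.14, Sdha from -0.86 to 0.43 and Sdhd from -0.39 to 0.96. The cause of these changes was not tested, and a lone library left in a group is assumed to vary like the other group. Across genes, the deviations of same-numbered libraries had a correlation of -0.056 in HFSCs and -0.023 in EpdSCs. With 2 libraries per group this cannot decide whether replicate numbers pair the libraries. With the replicate block, 231 HFSC genes were called, with 3 members higher (1.01% of all genes) and 0 lower (0.596%), and the HFSC median was 0.94 (all genes -0.65). The EpdSC block called 1271 genes, with 0 members higher (1.1% of all genes) and 2 lower (6.73%), Ndufa5 and Ndufa3, while Atp5mpl had an adjusted p of 0.0706 by limma.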
